A study of Oryza sativa with 9 samples.

Results

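Transcript levels of 10 rice loci of the heat stress transcription factor (HSF) family were measured by RNA sequencing in leaves. The loci were chosen by identifier: 5 members of subclass A2 (HsfA2a to HsfA2e), HsfA3, 3 members of subclass B2 (HsfB2a to HsfB2c) and LOC_Os01g54550, listed as class A4. All 10 were among the 55986 identifiers of the authors' table. The choice used names and not measured values, although earlier results of these data were known when it was made. NP is the label of the wild-type plants, with 3 libraries. Both mutant groups carry the genotype label osatxr5c;osatxr6kd, and their titles number them -1 and -2, called line 1 and line 2 here, with 3 libraries each. The targeted genes, OsATXR5 and OsATXR6, encode the rice forms of ATXR5 and ATXR6, methyltransferases of land plants that act on lysine 27 of histone H3. All plants were 40 days old and field-grown, and the labels name no heat treatment. The air temperature, the hour of harvest, the meaning of the suffixes c and kd, and whether a line descends from 1 plant are not given in the sources used here. The targeted genes were not analysed here, so the labels were not checked against them.

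HSFs bind short repeated motifs, the heat shock elements, in the promoters of genes for heat shock proteins, which are chaperones. Class A members carry activator motifs. Class B members lack these motifs, and in Arabidopsis several of them act as repressors. In tomato and Arabidopsis, HsfA1 proteins start the heat response, and HsfA2, itself a heat-induced gene, prolongs it. Several HSF genes also respond to drought, salt or light stress without heat.

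The names of the loci came with the list and not from the table. A RefSeq table of rice gene records holds none of the 10 identifiers, but it holds each of the 10 names once, and for 9 names the record lies on the chromosome that the identifier denotes. The exception was the name HsfA4d (Spl7), given in the list for LOC_Os01g54550. The identifier denotes chromosome 1, where RefSeq lists 4 HSF records, HSFA4B among them, whereas its HSFA4D record, which also carries the name SPL7, is on chromosome 5. The locus is therefore called by its identifier here.

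The values are the authors' TPM (a length-corrected measure of relative transcript abundance), which scales each library to 1000000. Levels can therefore be compared between genes, but sequencing depth is not kept. The libraries listed between 21798 and 22621 genes above 0, and the lowest value above 0 in a library was 0.303 to 0.327 TPM. The labels do not say whether the 3 libraries of a group came from separate plants. The p-values set a change against the spread between libraries, pooled over the groups and moderated over all tested genes. That spread may be technical. A list of 5 leaf-marker loci (Rubisco small subunits and light-harvesting proteins, by background knowledge) summed to 34730 to 36630 TPM in NP, 34290 to 35380 in line 1 and 38080 to 39690 in line 2. Of 5 floral marker loci, 3 were listed at 0 in all 9 libraries, and the list summed to 18.5 to 28 TPM in a library, of which LOC_Os03g11614 held 18.0 to 27.4 TPM.

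Of the 10 loci, 9 averaged 1 TPM or more across all libraries and were tested. HsfA3 was higher in both mutant lines, by 6.84-fold in line 1 and 4.33-fold in line 2. HsfA2c, HsfA2d, HsfB2a and HsfB2b were higher in line 1 than in NP and lower in line 2 than in line 1, and HsfA2d and HsfB2b were lower in line 2 than in NP as well. HsfA2b was lower in both lines. No change of HsfA2e or HsfB2c was called in any comparison. These calls come from limma's moderated test on log2(TPM + 1) across all 19345 tested genes, with a Benjamini-Hochberg adjusted p of 0.05 as the threshold.

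**Figure D1:**
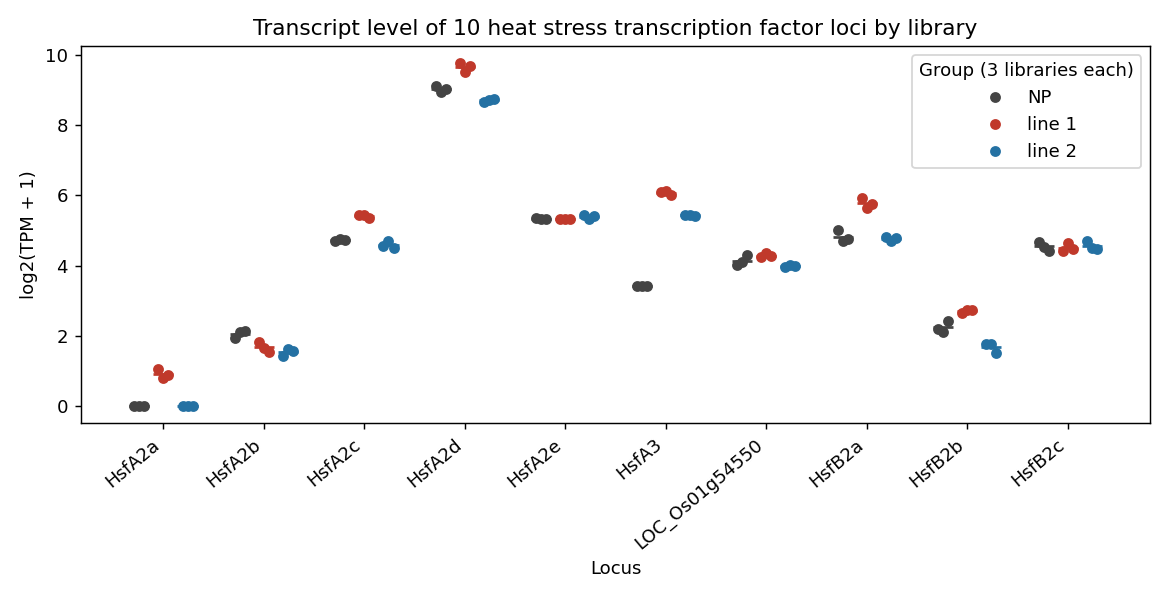
Level of each of the 10 loci in each library, as log2(TPM + 1), by group. Points are libraries and short lines are group means; HsfA2d lies above every other locus in all 9 libraries, and HsfA3 moves from 9.70 TPM in NP to 66.4 TPM in line 1 and 42.1 TPM in line 2.

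HsfA3 (LOC_Os02g32590) encodes an activator that, in Arabidopsis, acts downstream of the dehydration-response factor DREB2A in heat and drought. Its levels were 9.69, 9.73 and 9.69 TPM in NP. Line 1 had 67.1, 68.8 and 63.4 TPM, and line 2 had 42.4, 42.2 and 41.6 TPM. The 3 groups did not overlap, and line 2 lay between NP and line 1. The change against NP was 2.65 ± 0.06 (SE) on the log2(TPM + 1) scale for line 1 (limma adjusted p = 5.4e-13). For line 2 it was 2.01 ± 0.06 (SE; limma adjusted p = 1.6e-11). Line 2 minus line 1 was -0.65 ± 0.06 (SE; limma adjusted p = 3.1e-06), so the size of the rise differed between the lines. By size among the 19345 tested genes, the rise of HsfA3 ranked 73rd in line 1 and 112th in line 2. HsfA3 had the seventh highest level of the 10 loci in NP and the second highest in both mutant lines.

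The 2 tested genes with the profile most like that of HsfA3 over the 9 libraries, by Pearson's r of log2(TPM + 1), were LOC_Os07g26100 (r = 0.998) and LOC_Os01g67810 (r = 0.997). The libraries fall into 3 groups, so r describes mainly the relative spacing of the group means. LOC_Os07g26100 was listed at 0 in NP and had a mean of 11.9 TPM in line 1 and 6.63 TPM in line 2. LOC_Os01g67810 had means of 11.3 TPM in NP, 48.0 TPM in line 1 and 34.2 TPM in line 2. The locus before HsfA3 in identifier order, LOC_Os02g32580, rose in line 1 by 0.92 (limma adjusted p = 1e-06), while its change of -0.12 in line 2 was not called (limma adjusted p = 0.35).

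HsfA2d (LOC_Os03g06630) is one of the heat-inducible A2 activators, and in rice its transcript is spliced into more than 1 form, which locus totals do not separate. Its levels were 554, 495 and 527 TPM in NP. Line 1 had 874, 729 and 825 TPM, and line 2 had 408, 419 and 427 TPM. All libraries of line 1 lay above NP and all libraries of line 2 below it. The change was 0.62 ± 0.06 (SE) in line 1, a ratio of 1.54, with a limma adjusted p of 5.4e-06. For line 2 it was -0.33 ± 0.06 (SE), a ratio of 0.795 (limma adjusted p = 0.0018). Line 2 against line 1 gave -0.95 ± 0.06 (SE), with a limma adjusted p of 9.3e-08.

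HsfA2d held between 69.6% and 78.5% of the summed TPM of the 10 loci in every library. The RefSeq records named HSFA2D and HSFA2C also carry names of ARD, an enzyme of methionine recycling, so each of these HSF names shares a record with another gene's name. In that table the HSFA2C record is classed as a transcribed pseudogene. How the authors' counting divided reads between overlapping genes is not stated, and the levels of HsfA2d and HsfA2c are uncertain to that extent. LOC_Os03g06620, next to HsfA2d in identifier order, was at 137 to 164 TPM in all 9 libraries, and its changes of -0.04 in line 1 and -0.08 in line 2 were not called (limma adjusted p = 0.69 and 0.49).

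HsfA2c (LOC_Os10g28340), another A2 activator, was at 24.9, 26.3 and 25.3 TPM in NP. Line 1 had 42.5, 42.3 and 39.8 TPM, and line 2 had 22.6, 25.0 and 21.7 TPM. Line 1 stood above the other 6 libraries, and line 2 overlapped NP. The rise in line 1 was 0.68 ± 0.07 (SE), a ratio of 1.63, with a limma adjusted p of 4.6e-06. In line 2 the change of -0.14 was not called (limma adjusted p = 0.20), with a 95% interval of -0.29 to 0.01. The lines differed by -0.82 ± 0.07 (SE) for line 2 minus line 1 (limma adjusted p = 1e-06). LOC_Os10g28350, next to HsfA2c in identifier order, was at 0.473 to 0.845 TPM in NP, up to 4.94 TPM in line 1 and 1.64 to 2.11 TPM in line 2. It rose in both lines (limma adjusted p = 3.9e-07 and 0.00062). Whether it shares reads with HsfA2c was not tested.

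HsfA2e (LOC_Os03g58160), which raised the stress tolerance of Arabidopsis when expressed there, stayed within a narrow range. It was at 40.1, 38.8 and 39.4 TPM in NP. Line 1 had 39.1, 39.5 and 38.9 TPM, and line 2 had 42.4, 39.1 and 41.3 TPM. The groups overlapped. The 95% interval of the change was -0.14 to 0.12 in line 1 and -0.08 to 0.18 in line 2, with limma adjusted p-values of 0.93 and 0.61.

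HsfA2b (LOC_Os07g08140) and HsfA2a (LOC_Os03g53340) had the lowest levels of the 10 loci. HsfA2b was at 2.80, 3.31 and 3.41 TPM in NP. Line 1 had 2.55, 2.11 and 1.92 TPM, and line 2 had 1.66, 2.05 and 1.96 TPM. Both lines lay below NP, and they overlapped each other. The change was -0.39 ± 0.13 (SE) for line 1 (limma adjusted p = 0.041) and -0.53 ± 0.13 (SE) for line 2 (limma adjusted p = 0.0087). The call in line 1 was not stable and held under 7 of 16 alternatives. It was lost after median-ratio scaling (limma adjusted p = 0.066) and with only the groups compared (0.064). It was also lost without any one of 6 libraries (replicates 2 and 3 of each group), where the limma adjusted p was 0.052 to 0.14.

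HsfA2a was listed at 0 in all 3 libraries of NP and of line 2, and at 1.06, 0.727 and 0.841 TPM in line 1. It was above 0 in line 1 alone, with a mean of 0.874 TPM there. Its mean over all 9 libraries, 0.291 TPM, was below the minimum for testing. No fold change or test is given for it.

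LOC_Os01g54550 was at 15.2, 16.2 and 18.8 TPM in NP. Line 1 had 17.9, 19.4 and 18.2 TPM, and line 2 had 14.6, 15.1 and 15.0 TPM. Line 1 overlapped NP. All 3 libraries of line 2 lay below NP, yet the change of -0.15 ± 0.09 (SE) was not called (limma adjusted p = 0.25). Line 2 was lower than line 1: the difference was -0.29 ± 0.09 (SE; limma adjusted p = 0.024). That call was lost without replicate 2 or 3 of line 1 or any one replicate of line 2, where the limma adjusted p was 0.059 to 0.080.

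The B2 loci encode HSFs without the class A activator motif. HsfB2a (LOC_Os04g48030) was at 31.3, 24.8 and 26.2 TPM in NP. Line 1 had 59.4, 49.3 and 53.0 TPM, and line 2 had 27.3, 24.8 and 26.6 TPM. Line 1 stood above the other 6 libraries, and line 2 overlapped NP. The rise in line 1 was 0.95 ± 0.09 (SE), a ratio of 1.96, with a limma adjusted p of 2.1e-06. The change of -0.06 in line 2 was not called (limma adjusted p = 0.73), with a 95% interval of -0.25 to 0.14. Line 2 minus line 1 was -1.01 ± 0.09 (SE; limma adjusted p = 1.7e-06).

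HsfB2b (LOC_Os08g43334), whose overexpression in rice lowered drought and salt tolerance, was at 3.53, 3.32 and 4.36 TPM in NP. Line 1 had 5.27, 5.62 and 5.66 TPM, and line 2 had 2.42, 2.37 and 1.82 TPM. The 3 groups did not overlap, with line 1 highest and line 2 lowest. The change was 0.47 ± 0.13 (SE) in line 1 (limma adjusted p = 0.014) and -0.56 ± 0.13 (SE) in line 2 (limma adjusted p = 0.0045). Without replicate 2 of NP the rise in line 1 missed the threshold (0.40, limma adjusted p = 0.059). The difference between the lines was -1.03 ± 0.13 (SE; limma adjusted p = 3.3e-05).

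HsfB2c (LOC_Os09g35790) was at 24.6, 22.2 and 20.5 TPM in NP. Line 1 had 20.3, 23.9 and 21.2 TPM, and line 2 had 25.2, 21.5 and 21.2 TPM. All 3 groups overlapped. The 95% interval of the change was -0.24 to 0.16 in line 1 and -0.19 to 0.21 in line 2 (limma adjusted p = 0.80 and 0.96).

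**Figure D2:**
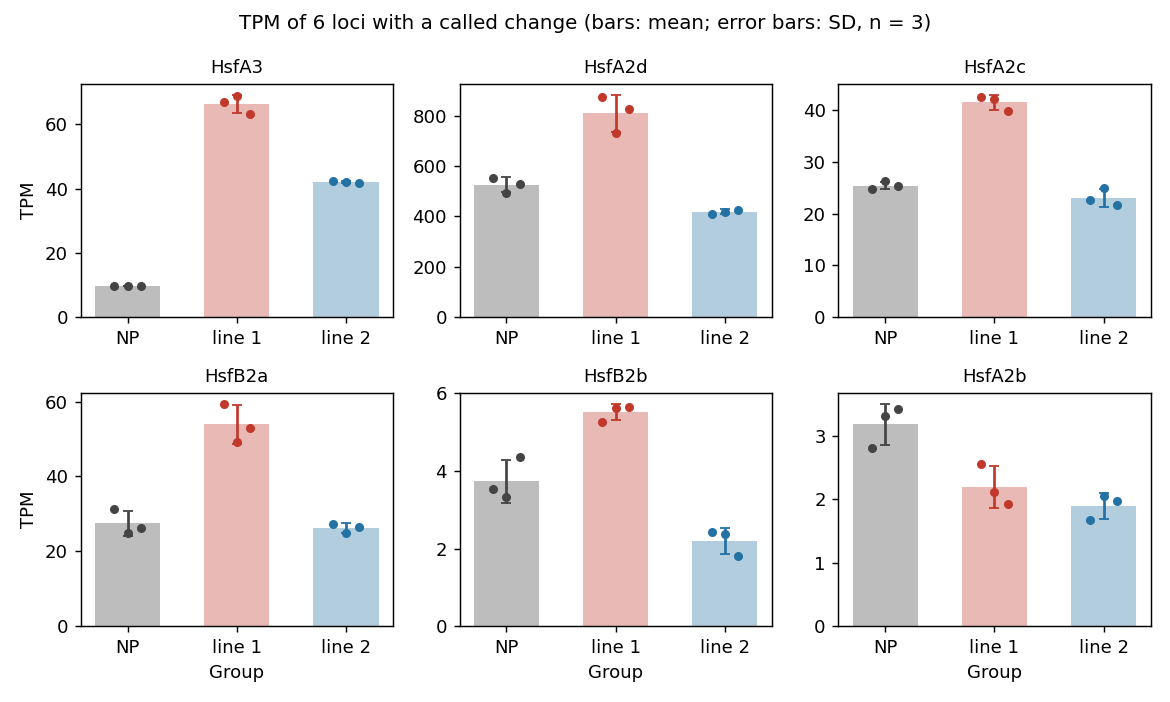
TPM of HsfA3, HsfA2d, HsfA2c, HsfB2a, HsfB2b and HsfA2b by group. Points are libraries, bars are means and error bars are SD (n = 3); HsfA3 is raised in both lines, HsfA2c and HsfB2a in line 1, HsfA2d and HsfB2b are above NP in line 1 and below it in line 2, and HsfA2b is below NP in both.

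In line 1 against NP, 6 of the 9 tested loci were called, 5 higher and 1 lower, beside 25.6% of all tested genes (9.94% higher and 15.7% lower). The median change of the 9 loci was 0.47, beside -0.06 for all tested genes. In line 2 against NP, 4 of the 9 were called, 1 higher and 3 lower, beside 21.9% of all genes (13.5% higher and 8.39% lower), with a median of -0.14 beside 0.00. The 2 comparisons share the NP libraries. Both lines changed in the same direction at 2 loci, beside 10.9% of all genes: HsfA3 upward (6.26% of all genes) and HsfA2b downward (4.67%). They changed in opposite directions at 2 loci, HsfA2d and HsfB2b, beside 0.998% of all genes. Among all genes the direction of the calls depended on the scaling. In line 1, 1922 genes were higher and 3031 lower as deposited, against 2518 and 1978 after median-ratio scaling. Quantile normalization gave 2060 higher and 2837 lower there. In line 2, 2613 were higher and 1623 lower as deposited, against 2268 and 2279 after quantile normalization. Median-ratio scaling gave 2559 higher and 1769 lower there. No called change of a member reversed its sign under either scaling.

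The lines were also compared directly. Of the 9 tested loci, 6 were lower in line 2 than in line 1 and none was higher, beside 22% of all tested genes called in either direction (6.8% lower and 15.2% higher). For HsfA2b, HsfA2e and HsfB2c, which were not called, the 95% intervals were -0.42 to 0.14, -0.07 to 0.19 and -0.15 to 0.25. After median-ratio scaling the genes split into 1921 higher and 1931 lower, against 2941 and 1315 as deposited. Quantile normalization gave 2183 higher and 1706 lower. The 9 loci had a median change of -0.65, beside 0.07 for all tested genes. At 5 loci (HsfA2c, HsfA2d, HsfA3, HsfB2a and HsfB2b) line 1 was called higher than NP and line 2 lower than line 1, a combination found in 3.95% of all tested genes. Both calls use the same line 1 libraries. Of these loci, only HsfA3 was also called higher than NP in line 2. When both lines were averaged against NP, HsfA3, HsfA2c and HsfB2a were called higher and HsfA2b lower. In that average 25.7% of all tested genes were called (12.7% higher and 13% lower). For HsfA2c and HsfB2a the average reflects the rise in line 1. Their changes of -0.14 and -0.06 in line 2 against NP were not called (limma adjusted p = 0.20 and 0.73). HsfA2d was not called in that average (change 0.15, limma adjusted p = 0.072), although each line differed from NP. It was called there after quantile normalization (limma adjusted p = 0.015) and without replicate 1 of NP (0.042) or replicate 2 of line 1 (0.0069).

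**Figure D3:**
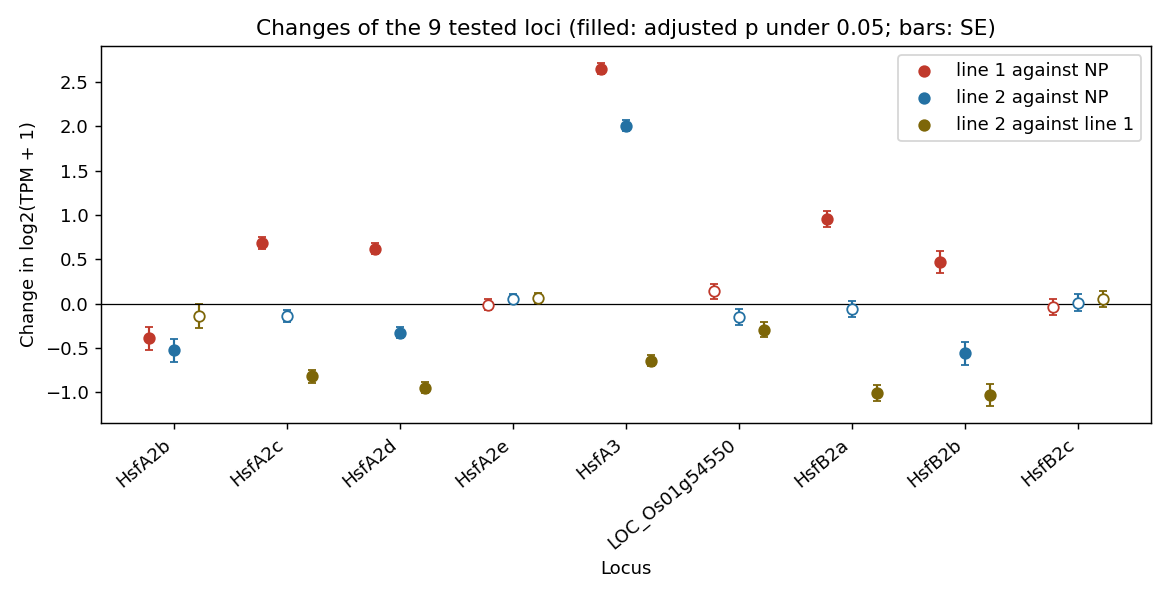
Change in log2(TPM + 1) of the 9 tested loci in line 1 against NP, line 2 against NP and line 2 against line 1. Filled points passed the threshold of limma's test, open points did not, and bars are SE; the 6 filled points of line 2 against line 1 all lie below 0.

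The order of the levels changed between groups. In NP it was HsfA2d, HsfA2e, HsfB2a, HsfA2c, HsfB2c, LOC_Os01g54550, HsfA3, HsfB2b, HsfA2b and HsfA2a, and the neighbours HsfB2a and HsfA2c, and HsfB2b and HsfA2b, overlapped in their ranges. In line 1, HsfA3, HsfB2a and HsfA2c stood above HsfA2e, and no neighbours overlapped. In line 2, HsfA3 and HsfA2e overlapped as the next below HsfA2d, as did HsfB2a with HsfA2c, HsfA2c with HsfB2c, and HsfB2b with HsfA2b.

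Summed by subclass, the A2 loci reached 594 ± 29.6 (NP), 893 ± 73.6 (line 1) and 484 ± 8.74 TPM (line 2; SD, n = 3 each). Most of this was HsfA2d. Without HsfA2d the sums were 68.1 ± 0.285 (NP), 83.8 ± 2.04 (line 1) and 66.0 ± 0.877 TPM (line 2; SD, n = 3 each). The B2 loci reached 53.6 ± 5.06 (NP), 81.2 ± 3.35 (line 1) and 51.1 ± 3.38 TPM (line 2; SD, n = 3 each). The sums of line 1 lay above those of all other libraries for both subclasses.

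The other 15 HSF loci, listed by identifier, were taken from background knowledge of the family. Of these, 5 were listed at 0 in every library, and 7 passed the minimum level. In line 1, 3 of the 7 were higher and 2 lower than NP, beside 9.94% and 15.7% of all tested genes. In line 2, 3 were higher and 1 lower, beside 13.5% and 8.39%. The 3 loci that rose were the same in both lines, beside 6.26% of all tested genes higher in both. The 2 comparisons share the NP libraries. The largest average rises were those of LOC_Os05g45410 and LOC_Os09g28354. LOC_Os05g45410 was at 25.5, 23.0 and 23.2 TPM in NP. Line 1 had 41.2, 42.2 and 42.0 TPM, and line 2 had 37.8, 39.2 and 39.4 TPM. Both lines stood above NP, with changes of 0.78 ± 0.06 (SE) and 0.68 ± 0.06 (SE) and limma adjusted p-values of 3.4e-07 and 1.9e-06. It is the 1 locus of this list on chromosome 5, where RefSeq has 1 HSF record, HSFA4D (SPL7), but no source used here pairs the identifier with that name.

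LOC_Os09g28354 had means of 15.4 TPM in NP, 20.2 TPM in line 1 and 31.0 TPM in line 2. It was the 1 locus among the 7 called between the lines, beside 22% of all tested genes (15.2% higher and 6.8% lower). Its change was 0.60 ± 0.08 (SE) for line 2 minus line 1 (limma adjusted p = 6.7e-05). LOC_Os01g43590 fell in both lines, from a mean of 6.45 TPM in NP to 3.51 TPM in line 1 and 3.67 TPM in line 2 (limma adjusted p = 0.0082 and 0.015). Its fall in line 2 was not called without replicate 1 of NP (limma adjusted p = 0.066) or replicate 1 of line 2 (0.07). The median change of the 7 loci was -0.01 in line 1, beside -0.06 for all tested genes, and 0.10 in line 2, beside 0.00.

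Genes of heat shock proteins, the textbook targets of HSFs, were taken as 24 identifiers from background knowledge, of which 17 passed the minimum level. In line 1, 12 of the 17 were higher and 2 lower than NP, where 9.94% of all tested genes were higher and 15.7% lower. In line 2, 2 were higher and 10 lower, where 13.5% of all genes were higher and 8.39% lower. In line 2 against line 1, 13 were lower and 1 higher, where 6.8% of all genes were lower and 15.2% higher. Among the small heat shock protein and HSP101 loci, 7 of 8 tested rose in line 1, with a median change of 1.31 over the 8, and 6 fell in line 2, with a median of -0.37. Some of the 8 have neighbouring identifiers, and whether such loci share reads was not tested. The 7 called in line 1 became 6 with a pseudocount of 0.1, with only the groups compared and with the replicate block. The count was also 6 without replicate 3 of NP, replicate 1 or 3 of line 1, or any replicate of line 2. One locus of that list, LOC_Os05g44340, rose in both lines, from a mean of 2.54 TPM in NP to 9.63 TPM in line 1 and 3.74 TPM in line 2 (limma adjusted p = 7.1e-08 and 0.013). Without replicate 3 of NP its rise in line 2 was not called (change 0.34, limma adjusted p = 0.06). Among the HSP70 and HSP90 loci, 5 of 9 rose and 2 fell in line 1, and 1 rose and 4 fell in line 2, to be read beside the same shares of all genes. The 5 called in line 2 became 3 with a constant prior variance, without replicate 2 of NP and without replicate 1 of line 2. The locus of that list higher in both lines was LOC_Os03g16860, with means of 728 TPM in NP, 1399.8 TPM in line 1 and 851 TPM in line 2 (limma adjusted p = 2e-07 and 0.037). Its rise in line 2 was not called after median-ratio scaling (0.073), with a constant prior variance (0.12), or without any one of 5 libraries, namely replicates 2 and 3 of NP, replicate 3 of line 1 and replicates 1 and 2 of line 2 (limma adjusted p = 0.053 to 0.14). LOC_Os11g47760 fell in both, from a mean of 1170.3 TPM in NP to 855 TPM in line 1 and 939 TPM in line 2 (limma adjusted p = 2.1e-06 and 7.8e-05). In bulk leaf RNA, a change in the share of cells that express a gene and a change in RNA per cell cannot be told apart.

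**Figure D4:**
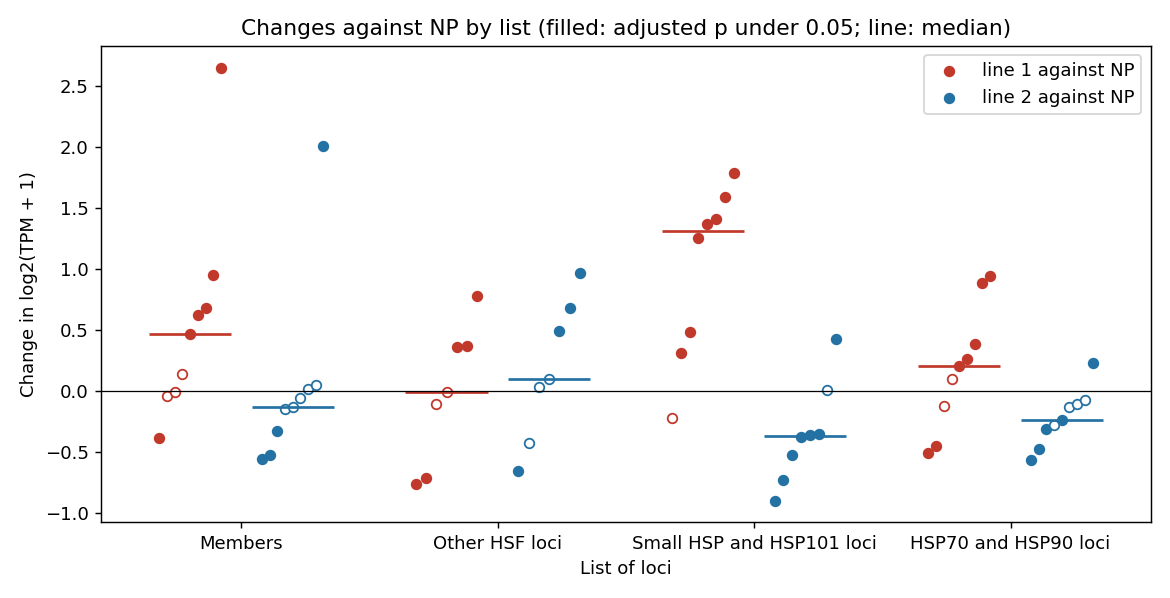
Change in log2(TPM + 1) against NP of each tested locus in 4 lists, for line 1 and line 2. Filled points passed the threshold of limma's test and horizontal lines are medians; the small heat shock protein and HSP101 loci have a median of 1.31 in line 1 and -0.37 in line 2.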

How the data were processed

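The authors deposited 1 table of TPM values with 1 column per library, each summing to 1000000. Per the submitters' processing notes, fastp 0.20.1, HISAT2 2.1.10 and DESeq2 1.26.0 were used, with no role given. The program that computed TPM, the genome build, the annotation and the strandedness are not given in the sources used here. Depth is unknown, so no counting error is given.

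Groups came from the sample titles. The 19345 genes that averaged 1 TPM or more were fitted with limma 3.58.1 (R 4.3.3) on log2(TPM + 1), with a mean per group, all 9 libraries and a variance trend on expression. Fold changes on this scale understate changes of low genes. Tests were two-sided, with Benjamini-Hochberg adjustment over all tested genes. The fit was also run on simulated data with independent normal noise and the same added change in both lines. That run could not show whether a difference between the lines, or an effect of the scaling, is recovered. Ratios are of mean TPM.

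Loci and lists were chosen with earlier results of these data known. All 10 loci are named; from the other lists, up to 2 loci that rose and 2 that fell in both lines (by the average change), and the 2 genes most like the locus with the largest average change. Neighbouring identifiers were named for HsfA3, HsfA2d and HsfA2c, after their values were seen. Some loci with no called change against NP also had neighbours that changed. LOC_Os01g54560, next to LOC_Os01g54550, rose by 1.65 in line 1 and 1.09 in line 2 (limma adjusted p = 6.2e-11 and 7.9e-09). The neighbours of HsfA2e had no called change against NP. Alternatives were a pseudocount of 0.1, no minimum or a minimum mean of 5 TPM, quantile and median-ratio scaling, fits to only 2 groups, a prior variance without the trend, a replicate block, and each library left out. A planned motif search was not run, as no promoter or protein sequence was used here. Same-numbered libraries of different groups were not paired in the main fit. The correlation of their deviations over genes was 0.0116 to 0.212. The correlation between differently numbered libraries was not computed, so these values do not decide whether the numbers mark a pairing.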

Additional observations from a re-analysis of the deposited data

Results flagged for a closer look

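Line 1 and line 2 share 1 genotype label and 1 reference group, NP. Whether they differ was tested as line 2 minus line 1 in limma's test, and 6 of the 9 tested loci passed an adjusted p of 0.05, all lower in line 2, beside 22% of all tested genes (6.8% lower and 15.2% higher). The changes on the log2(TPM + 1) scale were -1.03 for HsfB2b, -1.01 for HsfB2a, -0.95 for HsfA2d, -0.82 for HsfA2c, -0.65 for HsfA3 and -0.29 for LOC_Os01g54550. For the first 5, the call held under every alternative in which the locus was tested (HsfB2b was not tested at a minimum mean of 5 TPM). Batches are not given in the labels, and a technical difference between the lines cannot be told apart from the lines themselves.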

How the results depend on the processing

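Of the 20 called changes of the loci, 17 stayed called with the same sign wherever they were tested. The exceptions were HsfA2b and HsfB2b in line 1 against NP and LOC_Os01g54550 in line 2 against line 1. HsfA2b and HsfB2b were not tested at a minimum mean of 5 TPM. With that minimum, 2 loci were called in line 2 against NP, 1 in both lines in the same direction, and 3 other HSF loci in line 1 and in the average of both lines, since fewer genes were tested. The number called in both lines in the same direction was 1 in place of 2 after median-ratio scaling, with only the groups compared and with the replicate block; in each case HsfA2b missed the threshold in line 1. Leaving out one library gave 1 to 2. With the replicate block, 5044 genes passed in the average of both lines, the limma adjusted p of HsfA2b in line 1 was 0.058, and HsfA2d was called in the average (0.046). Median-ratio scaling gave an A2 sum of 473.2 TPM in line 2, since each library was divided by its size factor.

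Every sign that reversed belonged to a change near 0 that was not called. Quantile normalization gave 0.0044 for HsfA2e in line 1, and -0.0197 and -0.0177 for HsfB2c in line 2 against NP and against line 1. Median-ratio scaling gave 0.0503 for HsfA2e and 0.0198 for HsfB2c in line 1, -9e-04 for HsfB2c in line 2, 0.0192 for LOC_Os01g54550 and 0.0095 for HsfB2c in the average, and -0.011 for HsfA2e and -0.0207 for HsfB2c in line 2 against line 1. Across the fits that left out one library, HsfA2e in line 1 ranged from -0.0217 to 0.0019 and HsfB2a in line 2 from -0.1234 to 0.0378. HsfB2c ranged from -0.1029 to 0.0271 in line 1, -0.0659 to 0.0772 in line 2, -0.0759 to 0.0521 in the average and -0.0266 to 0.1138 in line 2 against line 1. In the average, LOC_Os01g54550 ranged from -0.0682 to 0.0785 and HsfB2b from -0.1122 to 0.0446. Without known depth, a value listed at 0 cannot be sized.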
